A study of Mus musculus with 14 samples.

Results

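The respiratory chain and the ATP synthase are built from subunits of both the nuclear and the mitochondrial genome. The nuclear subunit genes were taken by symbol, from rows that begin NDUF (A, B, C, S or V and a number), UQCR, COX4 to COX8 or ATP5, or that read CYC1 or SDHA to SDHD. The rule matched 85 of the 22842 genes listed in both deposited count tables. By prefix, 37 members belonged to complex I, 4 to complex II, 9 to complex III, 16 to complex IV and 19 to complex V, of which 2 carried pseudogene-like symbols. Ndufa4 is now regarded as a subunit of complex IV but was kept with complex I by its prefix, and Atp5s and Atp5sl are not structural subunits of the ATP synthase.

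The study followed mouse blood stem cells (hematopoietic stem cells, HSC) by inducible lineage tracing, in which a reporter, given as Tom, marks stem cells and is passed to their progeny. Single lineage-negative, Tom-positive cells were sorted into plates and sequenced from the 3′ end of each transcript with a Smart-seq2 variant. Mouse m4539 was sampled at day 3, mouse m4533 at day 10, and mice m4528, m605 and m606 at day 17, all carrying the reporter and all sorted for it. Counts of m4539, m4533 and m4528 make up the first table, and those of m605 and m606 the second table, together with a plate of both mice that was left out of the tests below. The sources used here do not give the strain, age or sex, the driver of the reporter or the event from which days were counted, and day 3 and day 10 had 1 mouse each.

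Complex I takes electrons from NADH and complex II from succinate, complex III passes them to cytochrome c, complex IV gives them to oxygen, and the ATP synthase (complex V) uses the proton gradient that results. Adult HSC are known as mostly quiescent cells that rely comparatively little on respiration, while erythroid precursors keep active mitochondria for heme synthesis until they mature. Several complex IV subunits exist as tissue isoforms: Cox4i2, Cox6a2 and Cox7a1 are best known from lung or from heart and muscle, Cox6b2 from testis, and their partners Cox4i1, Cox6a1, Cox7a2 and Cox6b1 are found in most tissues.

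Promoters of these genes often carry sites for nuclear respiratory factor 1 (NRF1), ETS factors or YY1. Of the 85 members, 64 had an entry among the RefSeq promoters of build GRCm38.p6. In the 250 bases before the start, the NRF1 letters (GCGCA, any base, then GCGC) occurred on either strand in 13 of these 64 members, or 20.3%, against 4.23% of the 27025 genes with a promoter. The ETS letters CCGGAAG occurred in 12 members, or 18.8%, against 7.83% of all, and the YY1 letters AAGATGGCG in 1 member, or 1.56%, against 0.710% of all. The NRF1 and ETS letters do not overlap in the sequences below, which show a member that was higher in every gate compared with HSC (Cox6a1, chr5:115348959-115349208, minus strand) and the member that was lower (Cox7a2l, chr17:83514334-83514583, minus strand). Both are printed 5′ to 3′, with capitals for the NRF1 letters and, last in Cox6a1, for the ETS letters on the reverse strand.
Cox6a1: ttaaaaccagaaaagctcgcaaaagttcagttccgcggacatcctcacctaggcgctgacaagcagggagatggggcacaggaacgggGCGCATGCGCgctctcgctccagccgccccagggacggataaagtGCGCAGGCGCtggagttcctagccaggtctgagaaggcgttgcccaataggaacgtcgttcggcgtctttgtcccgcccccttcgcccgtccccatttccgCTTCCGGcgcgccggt
Cox7a2l: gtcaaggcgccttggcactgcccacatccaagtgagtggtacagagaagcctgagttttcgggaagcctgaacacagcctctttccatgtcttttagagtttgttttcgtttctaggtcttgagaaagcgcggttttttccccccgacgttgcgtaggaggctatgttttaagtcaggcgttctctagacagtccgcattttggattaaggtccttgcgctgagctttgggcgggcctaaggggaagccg
Cox6a1 held the NRF1 letters at 2 places and the ETS letters at 1, and Cox7a2l held none of the 3 motifs. The pair is an illustration and does not stand for the members that were higher: Cox5a, Atp5b, Atp5o and Cox7a2, which were also higher in every gate, held none of the 3 motifs, and Atp5e held the ETS letters at 1 place. The last 23 bases of the Cox6a1 stretch, which include its ETS letters, lie inside the GENCODE span of the gene (115345642 to 115348981). The Cox7a2l stretch lies inside the longer gene model of the GENCODE annotation (chromosome 17, 83501918 to 83517330, minus strand), so it precedes only the RefSeq start. A match of letters is a description and not a measured binding site.

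Of 9357 barcodes, 1010 had at least 500 detected genes and 10000 counts, with 585 of them in the first table and 425 in the other. Each mouse contributed 107 to 288 of these cells and 25482791 to 64257177 counts. Cells were placed by marker genes, none of them a member: a marker was positive at 6 counts and 50 CPM (counts scaled by the total of the cell), and a cell joined the list with the highest share of positive markers. With 7 lists (HSC, megakaryocyte, erythroid, primary granule, monocyte, neutrophil, and basophil or mast cell), 759 cells were gated. The primary granule list took most myeloid cells and many others, so a second gate with the 6 remaining lists was added after the cell numbers, but no test, had been seen. In the 6-list gate the median cell had 78.6% of the erythroid markers positive in the erythroid gate, 70% of the monocyte markers in the monocyte gate, 63.6% of the megakaryocyte markers in the megakaryocyte gate and 42.9% of the HSC markers in the HSC gate. The primary granule markers, which this gate does not use, were 57.1%, 85.7%, 57.1% and 14.3% positive in the median cell of these gates. HSC markers summed to 5513 to 7089 CPM in HSC-gated sums, against 153 to 1359 CPM in the erythroid, monocyte and megakaryocyte sums. Erythroid markers summed to 9513 to 13168 CPM in erythroid-gated sums and to at most 929.5 CPM in the other 3 gates. Cells were gated by these same markers, so the shares and sums of a gate's own list describe it and do not test it.

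Counts were summed per mouse and gate where a mouse had at least 10 cells, and gates were compared within mice by edgeR's quasi-likelihood test, with p-values adjusted over all genes tested. A CPM value is the share of a sum's counts, so it does not follow the total RNA of a cell. Exons of 23 members overlap another gene, among them Cox5a, Atp5f1, Atp5o, Ndufb5, Ndufb6, Ndufs1, Atp5a1 and Cox6a2, and for these the reads of both genes cannot be told apart because the sources used here do not give the strand of counting.

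With the 7-list gate, erythroid-gated cells of m605 and m606 (27 cells each) were set against HSC-gated cells of m4539, m4533, m4528 and m606 (155, 45, 15 and 12 cells). Of 82 members that passed the filter on low counts, 11 were higher in erythroid-gated cells and none was lower (adjusted p under 0.05), against 1.35% higher and 1.45% lower of all 15335 genes tested. The 3 members left out by that filter were Cox8c, Ndufa4l2 and a pseudogene-like symbol. The 11 were Cyc1, Ndufs1, Cox6b2, Cox6a1, Ndufa5, Uqcr10, Cox7a2, Atp5b, Cox6b1, Ndufb5 and Ndufv2, so 4 came from complex I, 2 from complex III, 4 from complex IV and 1 from complex V. The median log2 change of the 82 members was 1.30, against 0.56 for all genes. Only m606 held both gates. Mouse m4539 had an HSC-gated sum alone, so with mouse as a block it added nothing to the change between gates. The call count fell to 0 without m605, to 2 without m4533 and to 3 without m4528, and stayed at 11 without m4539. Beside these counts stood 0.39%, 1.33%, 1.11% and 2.85% of all genes.

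Cox6a1, the widespread isoform of subunit 6a of cytochrome c oxidase, stood at 1313 and 1213 CPM in erythroid-gated cells of m605 and m606, against 239, 123, 81.9 and 294 CPM in HSC-gated cells of m4539, m4533, m4528 and m606. Every erythroid value lay above every HSC value, and the log2 change was 2.18 ± 0.23 (SE, adjusted p = 0.0107). Both erythroid sums are of the second table and 3 of the 4 HSC sums are of the first, so this and the next 3 comparisons across mice also span the tables. Between the tables, Cox6a1 differed by 1.70 to 2.02 on the log2 scale within the gates of the 6-list version at day 17, and within m606 alone it stood at 1213 CPM in erythroid-gated and 294 CPM in HSC-gated cells. Atp5b, the catalytic beta subunit of the ATP synthase, had 1552 and 1836 CPM in erythroid-gated cells, against 665, 576, 566 and 697 CPM in HSC-gated cells, also without overlap (1.80 ± 0.17, adjusted p = 0.00743).

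Cyc1, cytochrome c1 of complex III, had the highest fold among the 11, with 536 and 591 CPM in erythroid-gated cells, against 205, 176, 79.5 and 15.9 CPM in HSC-gated cells (log2 change 4.25 ± 0.65, adjusted p = 0.0293). The groups did not overlap. The lowest HSC value came from the 12 cells of m606, the only mouse with both gates, and rested on 10 counts. Ndufs1, the largest iron-sulfur subunit of complex I, had 249.5 and 239.5 CPM in erythroid-gated cells, against 125, 86.3, 28.9 and 22.3 CPM in HSC-gated cells (3.54 ± 0.52, adjusted p = 0.0271), also without overlap. Its HSC value in m606 rested on 14 counts. Neither passed with the 6-list gate, where the log2 change was 1.35 ± 0.60 for Cyc1 (adjusted p = 0.2) and 0.60 ± 0.59 for Ndufs1 (adjusted p = 0.592). That gate adds HSC-gated cells of m605, in which Cyc1 stood at 565 CPM and Ndufs1 at 312 CPM, against 519 and 238 CPM in erythroid-gated cells of the same mouse. Ndufv2, a small iron-sulfur subunit of complex I, also missed the threshold there (0.98 ± 0.40, adjusted p = 0.164), and the other 8 members passed with both gates.

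The other 7-list contrasts gave no member past the threshold in edgeR. For megakaryocyte-gated over HSC-gated cells 0% of all genes passed, 25 members (30.5%) had an unadjusted p under 0.05, against 15.7% of all genes, and DESeq2 called 3 members (3.66%), against 11.5% of all genes. For the cells gated by primary granule genes over HSC-gated cells, edgeR called 0.176% of all genes higher and 0.0522% lower. There 44 members (53.7%) had an unadjusted p under 0.05, against 15.8% of all genes, and DESeq2 called 8 (9.76%), against 9.6%. For erythroid-gated over megakaryocyte-gated cells, edgeR called 0.0587% of all genes higher and 0.587% lower, 19 members (23.2%) had an unadjusted p under 0.05, against 11.5%, and DESeq2 called 2 (2.44%), against 7.0%. The DESeq2 shares of members thus lay below or near those of all genes in these 3 contrasts. For erythroid-gated over HSC-gated cells, DESeq2 called 16 members (19.5%), against 15.7% of all genes, so there too the shares were near each other. The median member change was 0.68, 0.98 and 0.61 in this order of contrasts, against 0.07, 0.69 and 0.46 for all genes.

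The 6-list gate gave sums of 3 mice for erythroid-gated cells (17, 37 and 37 cells in m4528, m605 and m606) and for monocyte-gated cells (43, 28 and 31 cells). It gave 4 for megakaryocyte-gated cells (13, 20, 10 and 34 cells in m4533, m4528, m605 and m606) and 5 for HSC-gated cells (155, 51, 78, 12 and 35 cells in m4539, m4533, m4528, m605 and m606). Relative to HSC-gated cells, 34 of 82 tested members were higher and 1 was lower in erythroid-gated cells (4.26% higher and 5.04% lower of all 16755 genes). In monocyte-gated cells 32 were higher and 1 was lower (3.63% and 2.87% of all genes), and in megakaryocyte-gated cells 8 were higher and none was lower (0.973% and 1.09%). The median member change was 1.0, 1.0 and 0.56 on the log2 scale in erythroid-, monocyte- and megakaryocyte-gated cells, against 0.04, 0.05 and −0.11 for all genes. The 3 contrasts share the HSC sums and are not independent of each other. Mouse m4539 again had an HSC-gated sum alone and added nothing to these changes between gates.

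These counts rested on few mice. Erythroid calls numbered 6 without m4528 and 1 without m606, against 2.9% and 0.79% of all genes. Monocyte calls numbered 4 without m4528, 15 without m605 and 3 without m606 (1.36%, 3.03% and 0.669% of all genes). Megakaryocyte calls numbered 1, 0, 4 and 0 without m4533, m4528, m605 and m606 (0.628%, 0.146%, 0.883% and 0.0365% of all genes). Direction within mice was the other measure taken: 68 of 82 members were higher in erythroid-gated than in HSC-gated cells in each of 3 mice (24.9% of all genes), 62 in monocyte-gated cells in each of 3 mice (19.8%) and 44 in megakaryocyte-gated cells in each of 4 mice (10.1%). Lower in each mouse were 3, 2 and 2 members, against 16.8%, 17.2% and 9.7% of all genes.

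Summed over all 85 members, respiration genes held 4.18 ± 1.35% of counts in erythroid-gated cells (SD, n = 3 mice), 3.94 ± 1.52% in monocyte-gated cells (n = 3), 3.02 ± 0.919% in megakaryocyte-gated cells (n = 4) and 2.24 ± 0.537% in HSC-gated cells (n = 5). Within a mouse, the erythroid sum was 1.52, 1.90 and 1.68 times the HSC sum in m4528, m605 and m606, and the monocyte sum was 1.42, 1.98 and 1.40 times the HSC sum. The megakaryocyte sum was 1.39, 1.30, 1.48 and 1.26 times the HSC sum in m4533, m4528, m605 and m606. Each of these 10 within-mouse ratios lay above 1, and in each of the 3 mice with all gates the megakaryocyte ratio was the lowest.

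**Figure D1:**
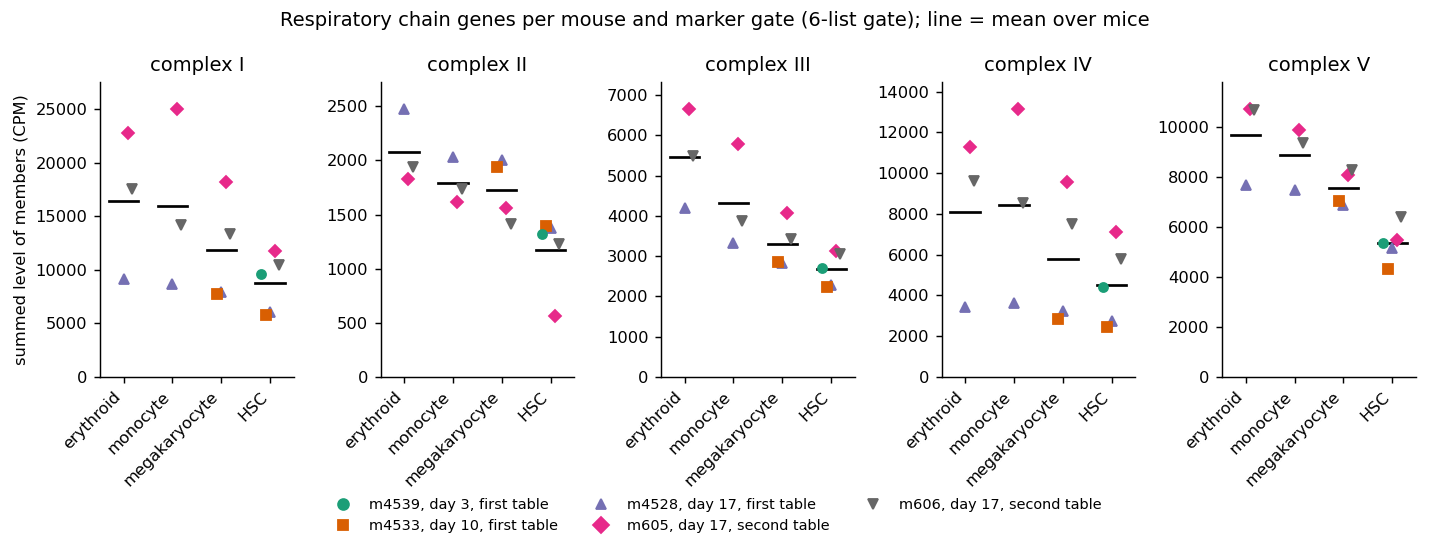
Summed level of the members of each complex (CPM, linear axis from 0) in erythroid-, monocyte-, megakaryocyte- and HSC-gated cells of the 6-list gate, with a point per mouse and a line at the mean over mice. Within each mouse the HSC point is the lowest for every complex, while mice m605 and m606 of the second table stand above m4528 in complexes I, III, IV and V.

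Cells of the gates also differed in depth and in cycling genes. The median cell held 251512 counts in the erythroid gate, 229291 in the monocyte gate, 156367 in the megakaryocyte gate and 117075 in the HSC gate. The summed level of 12 S phase genes was 3897 to 5734, 2849 to 5044, 2320.0 to 4006 and 732 to 1881 CPM in the same order of gates. Monocyte-gated sums also held 14868 to 16490 CPM of the 7 primary granule genes and 969.9 to 2582 CPM of the 11 neutrophil genes, against 544 to 1636 and 361 to 727 CPM in HSC-gated sums. The part of these differences in the results on respiration genes was not tested.

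Complex I, the NADH dehydrogenase, had 36 tested members. Relative to HSC-gated cells, 13 were higher in erythroid-gated, 12 in monocyte-gated and none in megakaryocyte-gated cells. In megakaryocyte-gated cells 12 had an unadjusted p under 0.05, against 17.4% of all genes. Ndufb6, an accessory subunit of the membrane arm, stood at 177, 635 and 477 CPM in erythroid-gated and 162, 716 and 381 CPM in monocyte-gated cells of m4528, m605 and m606. In HSC-gated cells of the same mice it stood at 59.2, 162 and 213 CPM, and at 205 and 62.6 CPM in m4539 and m4533. Within each shared mouse both gates lay above HSC, although the erythroid and monocyte values of m4528 overlapped the HSC values of other mice. The log2 change was 1.60 ± 0.27 in erythroid-gated (adjusted p = 0.00515) and 1.66 ± 0.27 in monocyte-gated cells (adjusted p = 0.00553).

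Ndufb7, a further accessory subunit, had 193, 639 and 548 CPM in erythroid-gated and 231, 1177 and 499 CPM in monocyte-gated cells, against 121, 169.7 and 230.3 CPM in HSC-gated cells of m4528, m605 and m606 and 286 and 122 CPM in those of m4539 and m4533. Both gates were above HSC in each of these 3 mice, with the values of m4528 below the HSC value of m4539. The change was 1.25 ± 0.32 in erythroid-gated (adjusted p = 0.034) and 1.76 ± 0.32 in monocyte-gated cells (adjusted p = 0.0106), the highest among the complex I members past the threshold there. Ndufa5 passed in erythroid-gated cells (1.55 ± 0.43, adjusted p = 0.0485) and not in monocyte-gated cells (0.83 ± 0.42, adjusted p = 0.301).

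Ndufv1, the core subunit of complex I that holds the flavin accepting electrons from NADH, passed in none of the 3 contrasts with HSC-gated cells. It had 643, 504 and 610.4 CPM in erythroid-gated cells, against 564, 185 and 374 CPM in HSC-gated cells of m4528, m605 and m606 (0.83 ± 0.31, adjusted p = 0.131). It was higher in erythroid-gated cells within each mouse, with an unadjusted edgeR p of 0.0231, but missed the threshold after adjustment over all genes tested. Ndufs7 and Ndufs8, core iron-sulfur subunits, did pass in erythroid-gated cells (0.85 ± 0.23, adjusted p = 0.047 and 0.97 ± 0.23, adjusted p = 0.024).

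Complex II, the succinate dehydrogenase of the citric acid cycle, has no subunit from the mitochondrial genome. Of its 4 members, 2 were higher in erythroid-gated and 2 in monocyte-gated cells, and none passed in megakaryocyte-gated cells. There 2 of the 4 had an unadjusted p under 0.05, against 17.4% of all genes. Sdhd, a membrane anchor, stood at 791, 365 and 565 CPM in erythroid-gated and 529.7, 257 and 350.1 CPM in monocyte-gated cells, against 291, 57.4 and 219.8 CPM in HSC-gated cells of m4528, m605 and m606. It had 302 and 243 CPM in HSC-gated cells of m4539 and m4533. All erythroid values lay above all HSC values, and the monocyte value of m605 alone lay within the HSC range (log2 change 1.80 ± 0.30, adjusted p = 0.00545, and 1.35 ± 0.30, adjusted p = 0.0257).

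Sdha, the flavoprotein, passed in erythroid-gated (1.02 ± 0.24, adjusted p = 0.0234) and not in monocyte-gated cells (0.54 ± 0.24, adjusted p = 0.224). Sdhb, the iron-sulfur subunit, passed in monocyte-gated (1.22 ± 0.29, adjusted p = 0.0339) and not in erythroid-gated cells (0.88 ± 0.29, adjusted p = 0.0892). Sdhc, the other anchor, passed in neither (0.69 ± 0.28, adjusted p = 0.164, and 0.56 ± 0.28, adjusted p = 0.295). The sum of complex II in HSC-gated cells was low in m605, at 563 CPM from 12 cells, against 1229 to 1392 CPM in the other 4 mice. Its fold over HSC in erythroid-gated cells was accordingly 3.25 in m605, beside 1.80 in m4528 and 1.58 in m606.

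Complex III, the cytochrome bc1 complex, had 5 of 9 members higher in erythroid-gated, 4 in monocyte-gated and 1 in megakaryocyte-gated cells. Uqcrq, a small subunit next to cytochrome b, passed in all 3 contrasts. It stood at 151, 1019 and 604.8 CPM in erythroid-gated and 141, 1267 and 469 CPM in monocyte-gated cells of m4528, m605 and m606, at 103, 112, 705 and 301 CPM in megakaryocyte-gated cells of m4533, m4528, m605 and m606, and at 146, 29.6, 49.5, 165 and 193 CPM in HSC-gated cells of m4539, m4533, m4528, m605 and m606. Levels of the same gate differed several-fold between m4528 and the other mice of day 17, so the gates overlapped across mice, but within every mouse the HSC value was the lowest. The log2 change was 2.02 ± 0.30 (adjusted p = 0.00297), 2.13 ± 0.30 (adjusted p = 0.0028) and 1.42 ± 0.27 (adjusted p = 0.0301) in erythroid-, monocyte- and megakaryocyte-gated cells.

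Uqcrc1, a core protein of the matrix side, had 1322, 794 and 749 CPM in erythroid-gated, 993, 584 and 594 CPM in monocyte-gated and 618, 432 and 339 CPM in HSC-gated cells of m4528, m605 and m606. It had 533 and 639.7 CPM in HSC-gated cells of m4539 and m4533. The erythroid values all exceeded the HSC values, and the monocyte values of m605 and m606 lay within the HSC range (1.11 ± 0.13, adjusted p = 0.000768, and 0.86 ± 0.13, adjusted p = 0.00416). Uqcrfs1, the Rieske iron-sulfur protein, passed in erythroid-gated (1.08 ± 0.21, adjusted p = 0.0114) and not in monocyte-gated cells (0.78 ± 0.21, adjusted p = 0.0572). Uqcrh, the hinge protein at cytochrome c1, differed by 0.01 ± 0.21 in erythroid-gated and −0.14 ± 0.22 in monocyte-gated cells, with adjusted p of 1 and 0.775.

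Complex IV, cytochrome c oxidase, had 15 tested members. In erythroid-gated cells 8 were higher and 1 was lower, in monocyte-gated cells 8 and 1, and in megakaryocyte-gated cells 3 and 0. Cox6a1 had 319.7, 1352 and 1174 CPM in erythroid-gated and 243, 1134 and 828 CPM in monocyte-gated cells of m4528, m605 and m606, and 233, 169.9, 671 and 717 CPM in megakaryocyte-gated cells of m4533, m4528, m605 and m606. In HSC-gated cells it had 239, 117, 101, 306 and 355 CPM in m4539, m4533, m4528, m605 and m606. The HSC value was the lowest within every mouse. Its log2 change was 1.89 ± 0.17 (adjusted p = 0.000217), 1.66 ± 0.17 (adjusted p = 0.000574) and 1.0 ± 0.16 (adjusted p = 0.0129) in erythroid-, monocyte- and megakaryocyte-gated cells.

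Cox5a, a subunit on the matrix side, stood at 467, 1364 and 1204 CPM in erythroid-gated and 616, 2029.9 and 1218 CPM in monocyte-gated cells of m4528, m605 and m606. It stood at 502, 412, 1222 and 1053 CPM in megakaryocyte-gated cells and at 356, 146, 209.8, 452 and 545 CPM in HSC-gated cells, mice in the order above. All 3 gates were higher than HSC within each mouse, by 1.42 ± 0.20 (adjusted p = 0.00224), 1.91 ± 0.20 (adjusted p = 0.000627) and 1.31 ± 0.19 (adjusted p = 0.00873) on the log2 scale. Cox6c and Cox7b, small subunits of the membrane part, rose by 1.62 ± 0.29 and 1.66 ± 0.23 in erythroid-gated cells (adjusted p = 0.00768 and 0.00222). In monocyte-gated cells they rose by 1.52 ± 0.29 and 1.64 ± 0.24 (adjusted p = 0.0134 and 0.00301).

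Cox7a2l, known as an assembly factor that joins complexes III and IV into supercomplexes, was the member that passed in the lower direction. It had 359.7, 295 and 283 CPM in erythroid-gated and 368, 386 and 349.9 CPM in monocyte-gated cells of m4528, m605 and m606, and 422, 436, 467 and 434 CPM in megakaryocyte-gated cells of m4533, m4528, m605 and m606. In HSC-gated cells it had 679, 751, 817, 601 and 581 CPM in m4539, m4533, m4528, m605 and m606. Every HSC value lay above every value of the other 3 gates, in both tables. The log2 change was −1.06 ± 0.18 in erythroid-gated (adjusted p = 0.00522), −0.68 ± 0.18 in monocyte-gated (adjusted p = 0.0463) and −0.59 ± 0.16 in megakaryocyte-gated cells (adjusted p = 0.0773). With the 7-list gate the erythroid change was −0.56 ± 0.32 (adjusted p = 0.407). There the HSC value of m606 was 372 CPM, against 281, 382 and 373 CPM in its erythroid-, primary granule- and megakaryocyte-gated cells. HSC was thus not the highest gate in m606. In m4533 and m4528 the HSC values were 738 and 745 CPM, against 413 CPM in megakaryocyte-gated and 436 CPM in primary granule-gated cells. Most cells of every gate were above the positive level: 93.0% of erythroid-gated, 90.8% of monocyte-gated, 95.8% of megakaryocyte-gated and 93.1% of HSC-gated cells.

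**Figure D2:**
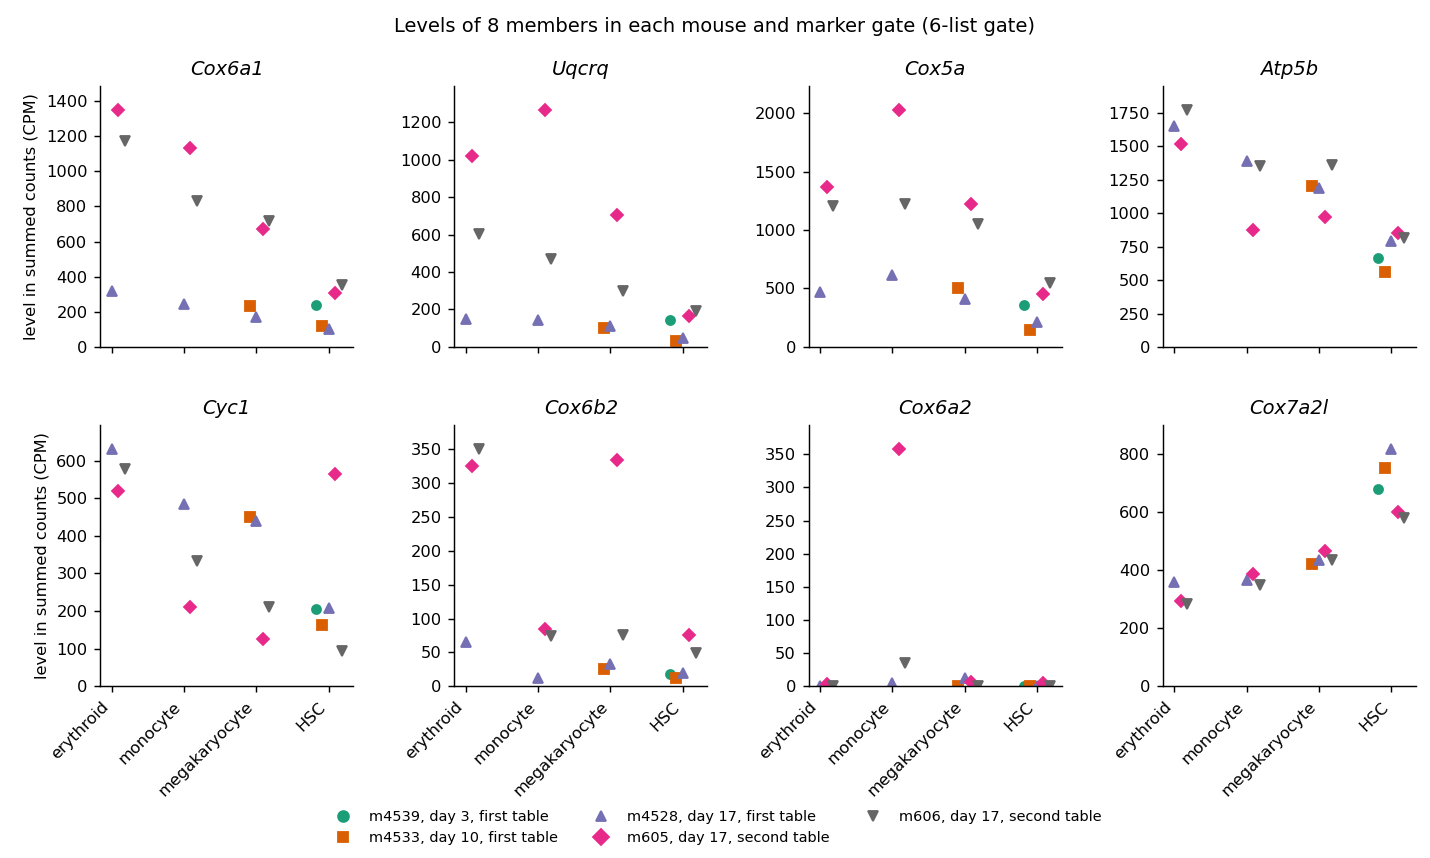
Level (CPM of summed counts, linear axes from 0) of 8 members in erythroid-, monocyte-, megakaryocyte- and HSC-gated cells of the 6-list gate, with a point per mouse. Cox6a1, Uqcrq, Cox5a and Atp5b are lowest in HSC within each mouse, Cox7a2l is highest in HSC, Cyc1 of m605 is high in HSC at 565 CPM, and Cox6a2 rests on a monocyte value of 358 CPM in m605.

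Complex V, the ATP synthase, had 18 tested members, of which 6 were higher in erythroid-gated, 6 in monocyte-gated and 4 in megakaryocyte-gated cells. Atp5b had 1649.6, 1520.3 and 1776 CPM in erythroid-gated and 1393, 874 and 1355 CPM in monocyte-gated cells of m4528, m605 and m606, and 1202, 1191, 972 and 1363 CPM in megakaryocyte-gated cells of m4533, m4528, m605 and m606. In HSC-gated cells it had 665, 563, 790.4, 853 and 816 CPM in m4539, m4533, m4528, m605 and m606. No value of the 3 gates fell within the HSC range, and here the mice of the 2 tables gave similar levels. The log2 change was 1.12 ± 0.17 (adjusted p = 0.00293), 0.80 ± 0.17 (adjusted p = 0.0187) and 0.68 ± 0.15 (adjusted p = 0.0489).

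Atp5f1, subunit b of the stator stalk, had 762, 776 and 898 CPM in erythroid-gated, 827, 833 and 785 CPM in monocyte-gated and 898, 651, 831 and 685 CPM in megakaryocyte-gated cells, against 326, 386, 506, 319 and 296 CPM in HSC-gated cells. The HSC values were again the lowest without overlap, and the log2 change was 1.22 ± 0.21, 1.36 ± 0.21 and 1.07 ± 0.19 (adjusted p = 0.00589, 0.00412 and 0.0214). Atp5o, the stator protein that confers oligomycin sensitivity, rose by 1.16 ± 0.19, 1.30 ± 0.20 and 0.83 ± 0.18, and Atp5e, the epsilon subunit of the rotor, by 1.01 ± 0.18, 1.16 ± 0.18 and 0.86 ± 0.16, all past the threshold. Atp5a1, the alpha subunit that pairs with Atp5b, changed by 0.75 ± 0.26, 0.71 ± 0.26 and 0.72 ± 0.23 and passed in none (adjusted p = 0.0963, 0.138 and 0.142).

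Atp5g1, Atp5g2 and Atp5g3 encode the same mature c subunit of the rotor ring. Atp5g1 had 15.4, 41.3 and 36.7 CPM in erythroid-gated cells of m4528, m605 and m606, against 6.02, 1.08, 2.95, 6.24 and 4.23 CPM in HSC-gated cells of m4539, m4533, m4528, m605 and m606 (2.90 ± 0.62, adjusted p = 0.0164). Its values did not overlap, but only 26 of 1010 cells were positive for it, and reads of near-identical copies may be split in ways the sources used here do not give. Atp5g3 changed by 0.91 ± 0.31 in erythroid-gated cells (adjusted p = 0.0963), and Atp5g2 stood at no more than 5.21 CPM in any sum of these 4 gates.

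**Figure D3:**
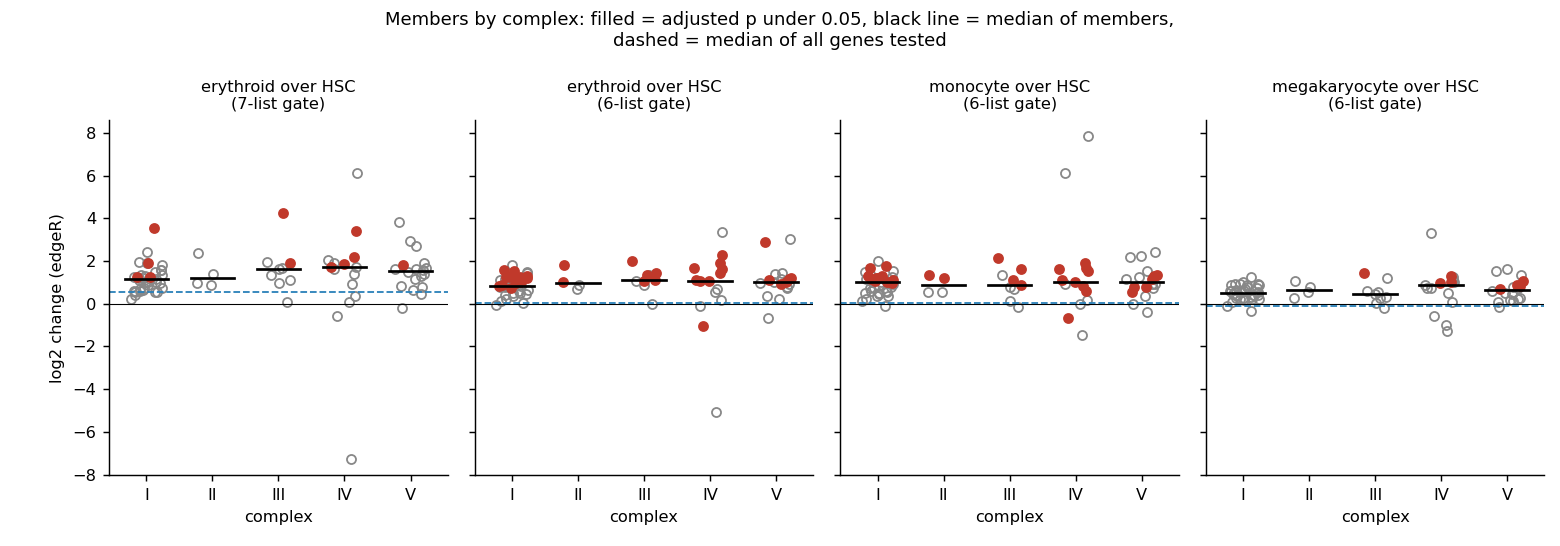
Log2 change of each tested member (points) over HSC-gated cells, by complex, for erythroid-gated cells of the 7-list gate and for erythroid-, monocyte- and megakaryocyte-gated cells of the 6-list gate. Filled points passed adjusted p 0.05 in edgeR (11, 35, 33 and 8 members), black lines are medians of members per complex, and the dashed line is the median of all genes, which lies below each black line.

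Between the sister lineages, 3 members were higher in erythroid-gated than in megakaryocyte-gated cells and none was lower, against 1.18% and 2.15% of all genes. Uqcrc1 had 1322, 794 and 749 CPM in erythroid-gated cells of m4528, m605 and m606, against 846, 746, 409.7 and 471 CPM in megakaryocyte-gated cells of m4533, m4528, m605 and m606 (0.81 ± 0.13, adjusted p = 0.00795). Uqcrfs1 had 857, 1048 and 1018 CPM in erythroid-gated cells, against 439.6, 493, 526 and 530.2 CPM in megakaryocyte-gated cells, without overlap (1.02 ± 0.20, adjusted p = 0.0223). Cox6a1 differed by 0.89 ± 0.17 (adjusted p = 0.0191). Within each of the 3 mice that hold both gates, 50 members were higher in erythroid-gated cells (21.7% of all genes) and 6 were lower (14.2%). None of the 3 passed without m4528 or without m606 (1.18% and 0.432% of all genes), and 1 passed without m605 (1.59% of all genes).

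Of the isoform pairs of complex IV, Cox4i1 (chromosome 8, 120668222 to 120674207, plus strand) was positive in 991 of 1010 cells. It had 1571, 4487 and 3243 CPM in monocyte-gated cells of m4528, m605 and m606, against 1207, 3179 and 2579.9 CPM in HSC-gated cells of the same mice, and 1996 and 969 CPM in HSC-gated cells of m4539 and m4533. The monocyte value was the higher within each mouse, by 0.58 ± 0.11 on the log2 scale (adjusted p = 0.0105). In erythroid- and megakaryocyte-gated cells it changed by 0.16 ± 0.11 and 0.07 ± 0.09 (adjusted p = 0.399 and 0.755). Cox4i2 (chromosome 2, 152754173 to 152765037, plus strand) was positive in 13 of 1010 cells, 11 of them HSC-gated, and 7 of these 11 were cells of m4539, the day 3 mouse with 155 HSC-gated and no monocyte-gated cells. Its share was 3.18% of HSC-gated cells (exact 95% interval 1.60 to 5.62%), against 0.833% of monocyte-gated, 1.05% of megakaryocyte-gated and 0% of erythroid-gated cells. Thinned to 10000 counts a cell, at least 1 count was seen in 2.02% of HSC-gated, 2.50% of monocyte-gated and 2.11% of megakaryocyte-gated cells, so the order of gates differed under this other rule at equal depth.

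Cox6a1 (chromosome 5, 115345642 to 115348981, minus strand) was positive in 93.0% of erythroid-gated, 96.7% of monocyte-gated, 96.8% of megakaryocyte-gated and 60.4% of HSC-gated cells. After thinning the shares were 95.7%, 90%, 93.7% and 59.8%. These shares pool the tables, and 22 of 115 erythroid-gated cells but 284 of 346 HSC-gated cells are of the first. Split by table and after thinning, the first gave 77.3%, 76.1%, 83.3% and 53.9% in erythroid-, monocyte-, megakaryocyte- and HSC-gated cells, and the second 100%, 98.6%, 100% and 87.1%, so the HSC share was the lowest in each but by a smaller gap in the second. Cox6a2 (chromosome 7, 128205435 to 128206387, minus strand) was positive in 16 cells, of which 13 were monocyte-gated. That was 10.8% of 120 monocyte-gated cells (exact 95% interval 5.90 to 17.8%), against 0 of 346 HSC-gated cells (upper bound 1.06%), and the thinned shares were 10% and 0.289%. Of the 13 cells, 12 were among the 74 monocyte-gated cells of the second table (6 of m605, 4 of m606 and 2 of the mixed plate) and 1 among the 46 of the first, which holds most HSC-gated cells. Within the second table the share was 16.2% (8.67 to 26.6%) in monocyte-gated cells, against 0 of 62 HSC-gated cells (upper bound 5.78%). Of 36 neutrophil-gated cells 2.78% were positive (0.0703 to 14.5%), but the thinned share was 11.1%, near the 10% of monocyte-gated cells. Within the second table the thinned shares were 16.7% of 18 neutrophil-gated and 14.9% of 74 monocyte-gated cells.

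The summed Cox6a2 level was 5.56, 358 and 35.5 CPM in monocyte-gated cells of m4528, m605 and m606, against 0, 0, 0, 4.99 and 0.847 CPM in HSC-gated cells of m4539, m4533, m4528, m605 and m606. The monocyte values of each mouse were the higher, with adjusted p = 0.0603, and a single cell of m605 held 1345 of the 2390 Cox6a2 counts of all kept cells. Without the highest cell of each sum the monocyte levels were 0.547, 92.6 and 18.8 CPM. Cox6a2 shares exon sequence with Itgad on the opposite strand, and reads of the pair cannot be told apart without strand.

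Cox6b2 (chromosome 7, 4751792 to 4753094, minus strand) stood at 65.1, 324 and 350.0 CPM in erythroid-gated cells of m4528, m605 and m606, against 25.9, 33.6, 333 and 76.3 CPM in megakaryocyte-gated cells of m4533, m4528, m605 and m606 and 18.3, 12.7, 19.5, 76.1 and 48.7 CPM in HSC-gated cells of the 5 mice. Erythroid values were above HSC values in each of the 3 shared mice (2.26 ± 0.46, adjusted p = 0.013). The megakaryocyte value of m605 lay among the erythroid values, but a single one of its 10 cells held 419 of its 504 Cox6b2 counts. In monocyte-gated cells the change was 0.17 ± 0.45 (adjusted p = 0.886). Positive cells made up 82.6% of erythroid-gated, 25.8% of monocyte-gated, 36.8% of megakaryocyte-gated and 11.6% of HSC-gated cells, and after thinning 73.9%, 26.7%, 32.6% and 14.2%. Within the first table the positive shares were 54.5%, 4.35%, 19.4% and 8.45%, and within the second 89.2%, 39.2%, 47.5% and 25.8%, so the erythroid share was the highest in each while every gate differed between tables. Its widespread partner Cox6b1 was positive in 97.4% of erythroid-gated and 77.2% of HSC-gated cells. Cox7a1, the heart and muscle isoform, was positive in 7 cells and listed at 0 counts in all HSC-gated cells, and its partner Cox7a2 was higher in all 3 gates (log2 change 1.09 ± 0.23, 1.02 ± 0.23 and 0.98 ± 0.21, adjusted p = 0.0161, 0.0265 and 0.0462). Cox8c and Ndufa4l2 were positive in 0 of 1010 cells, which allows a share of up to 0.365% (exact upper bound, counting error only). That bound limits cells at 6 counts and 50 CPM and not cells with the transcript, since Ndufa4l2 had 33 counts in all, at most 4 a cell, and Cox8c had 6, at most 1 a cell.

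**Figure D4:**
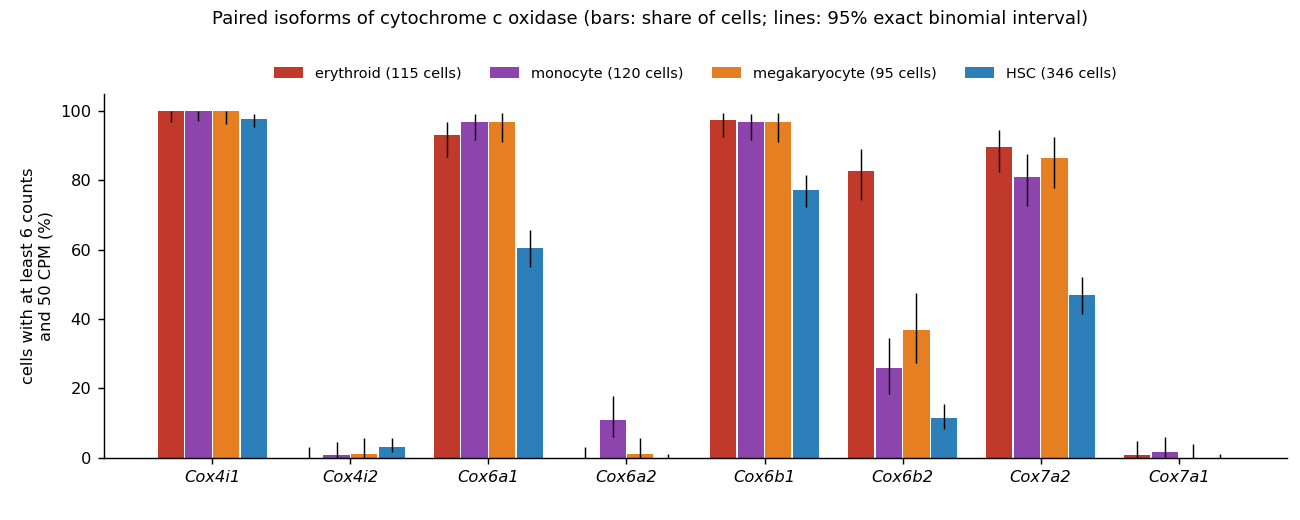
Share of cells (%, axis from 0) with at least 6 counts and 50 CPM of 8 complex IV isoform genes in erythroid-, monocyte-, megakaryocyte- and HSC-gated cells of the 6-list gate, with exact 95% binomial intervals that cover counting error over cells only. The shares pool the tables. Cox6b2 stands out in erythroid-gated cells at 82.6%, Cox6a2 reaches 10.8% in monocyte-gated cells, and Cox4i1 was found in nearly all cells of every gate.

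Other mitochondrial genes were counted from lists that hold no member. In erythroid-gated cells of the 6-list gate, 4.26% of all genes were higher than in HSC-gated cells. Higher were 7 of 17 genes of mitochondrial protein import and 6 of 16 of the citric acid cycle. They included Tomm40, the import pore (2.20 ± 0.41, adjusted p = 0.00895), Mdh2, malate dehydrogenase (1.30 ± 0.12, adjusted p = 0.000231), and Cs, citrate synthase (1.73 ± 0.33, adjusted p = 0.0102). Of 7 tested genes of the mitochondrial genome, 2 were higher, mt-Nd1 and mt-Nd2, both subunits of complex I. None of 14 complex I assembly factors, 1 of 28 assembly factors of the other complexes (Atpif1, the ATP synthase inhibitor), none of 13 carriers and coenzyme Q genes and 1 of 13 biogenesis genes (Slirp) passed, all in the higher direction. In monocyte-gated cells 4 import genes and 2 citric acid cycle genes were higher (3.63% of all genes). So was 1 gene each of the complex I assembly, carrier and biogenesis lists. In megakaryocyte-gated cells Etfb, Mdh2 and Ppargc1b were higher (0.973% of all genes). No gene of these lists was lower than in HSC-gated cells in these contrasts. Of all genes, 5.04%, 2.87% and 1.09% were lower in erythroid-, monocyte- and megakaryocyte-gated cells. The lists' median changes lay between 0.64 and 1.28 in erythroid-gated cells, against 0.04 for all genes. The calls of these lists without single mice are not given here.

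The change with day was read in HSC-gated cells, where the first table holds 1 mouse a day. Summed over members, the level was 23374, 16136 and 17657 CPM at days 3, 10 and 17 in m4539, m4533 and m4528, and 28050 and 26945 CPM at day 17 in m605 and m606 of the second table. Day 3 was thus the highest of the first table, and both day 17 mice of the second table were higher still. Within the first table, 60 of 75 members at 10 CPM or more were lower at day 10 than at day 3 (49.1% of all genes) and 59 were lower at day 17 than at day 3 (49.6%). With 1 mouse a day, mouse and day cannot be told apart.

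A slope per 14 days was fitted with table as a covariate. By edgeR it called no member and no gene (0% of all genes) in HSC-gated cells of either gate or in all kept cells. DESeq2 also called no member, against 0.44% of all genes with the 7-list gate, 0.0227% with the 6-list gate and 2.72% in all kept cells. Unadjusted p was under 0.05 for 6.41% of members with the 7-list gate, 2.56% with the 6-list gate and 8.43% in all kept cells, against 9.42%, 1.8% and 8.8% of all genes. The median slope of members was −1.0, −1.02 and −0.43 with the table in the fit, against −0.60, −0.06 and 0.03 for all genes. Without the table it was −0.11, 0.27 and 1.12 for members. The sign with the 6-list gate and in all kept cells, and the size with the 7-list gate, thus depended on that covariate. No direction is given.

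**Figure D5:**
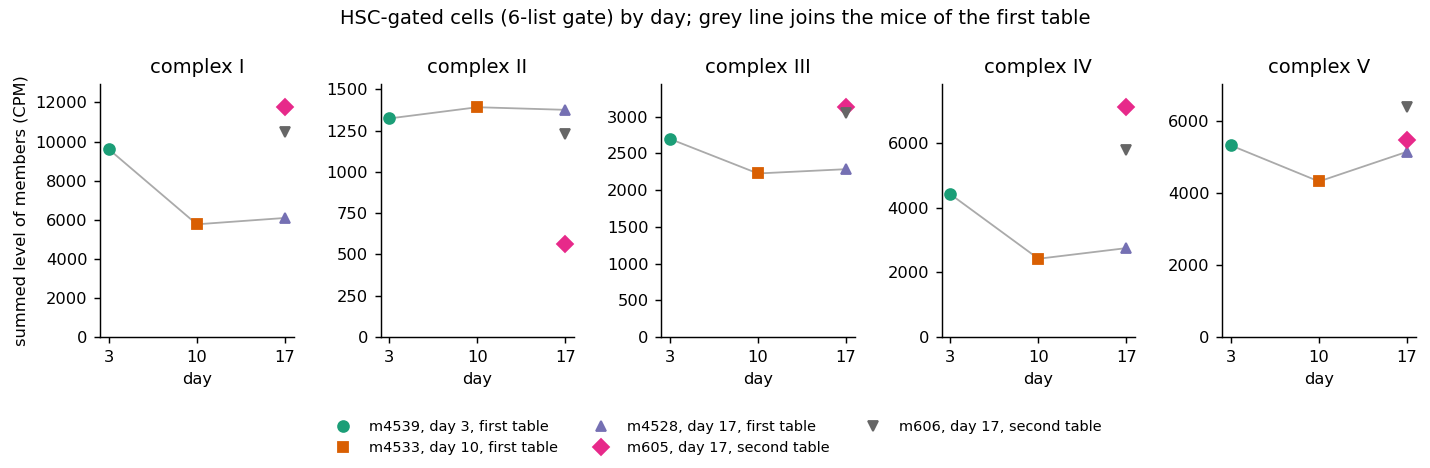
Summed level of members per complex (CPM, linear axes from 0) in HSC-gated cells of the 6-list gate by day (3, 10 and 17), with a point per mouse. The grey line joins m4539, m4533 and m4528 of the first table, and m605 and m606 of the second table at day 17 lie above m4528 in complexes I, III, IV and V.

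The 2 tables differed for the members at the same day and gate, which is why gates were compared within mice. In cells of day 17, members stood 3.01, 3.15, 2.48 and 2.50 times higher (median) in m605 and m606 than in m4528 in erythroid-, monocyte-, megakaryocyte- and HSC-gated cells, while the median of all genes lay at −0.22, −0.23, −0.18 and −0.28 on the log2 scale. Of 75 to 79 members at 10 CPM or more, 51 to 59 were higher in both mice of the second table (21.8 to 32.0% of all genes), and 12 to 16 were lower. Members with shorter transcripts differed more: Spearman's rho between the difference and transcript length was −0.58, −0.56, −0.59 and −0.57 over 74 to 78 members, a description with no test. Of the plates, 60796 and 39102 CPM of members were found on the 2 of m605, 36775 to 38858 CPM on the other 3 of the second table and 16840 to 27418 CPM on the 9 of the first table. A test of whether the change from HSC to another gate differed between tables called 0 members and 0% of all 14149 genes in edgeR. This held for erythroid-, monocyte- and megakaryocyte-gated cells, so the count of 0 does not set the members apart. Unadjusted p was under 0.05 in 1, 3 and 1 of 82 members (1.22%, 3.66% and 1.22%), against 4.41%, 3.8% and 5.99% of all genes.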

How the data were processed

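Both tables hold the authors' deposited read counts for each gene and barcode, which were not normalized. Reads were placed on GRCm38, per the submitters' processing notes, with aligner and counter not given in the sources used here. Use of molecular identifiers is not stated, so intervals cover counting error only. Barcodes with at least 500 detected genes and 10000 counts were kept. Kept cells per mouse held a median of 118001 to 286917 counts. The kept cells carried 96 distinct barcode sequences, which recur over plates. Both tables were joined by gene symbol.

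A cell joined a marker list at a score of at least 0.3 (share of markers positive), with at least 3 markers and a lead of 0.1, and 268 cells lay within 0.05 of the gate. Counts were summed per mouse and gate and tested with edgeR 4.0.16 (TMM, filterByExpr, quasi-likelihood, Benjamini-Hochberg over all genes, threshold 0.05) in R 4.3.3, with mouse as a block because gates come from the same animals. This left 3 residual degrees of freedom with 7 lists and 7 with 6 lists. DESeq2 1.42.0 and limma 3.58.1 (log2 of mean CPM plus 1) were alternatives. The scripts were tested on simulated data. Coordinates are from GENCODE on GRCm38, in which 84 members were found, and promoters from RefSeq. Named were members past the threshold, up to 12 per direction in order of fold, and fixed subunits and isoforms. Ndufs7, Ndufs8, genes of the other lists and members overlapping other genes were named after their values were seen. The 7-list gate was the planned result. The 6-list gate was added after cell numbers had been seen, and a version of it that used only gates with at least 2 mice after its calls had been seen. The members and all lists were chosen with earlier results of these data known, so no list is independent evidence. A gene named by the rule is not reported here.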

Additional observations from a re-analysis of the deposited data

Results flagged for a closer look

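Of the symbols that the rule matches, 3 occurred in the second table only and entered no comparison. Atp5l-ps2 had 39 counts in 35 of 425 kept cells, or 0.550 CPM, and Atp5l2-ps had 11 counts in 11 cells, or 0.155 CPM. Both lay above the level that a count of 0 would allow, which is 3 counts or 0.0423 CPM over these cells. Both symbols are pseudogene-like, and the sources used here do not say how reads were split between such copies and Atp5l. Cox7b2 had 0 counts in the same 425 cells.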

How the results depend on the processing

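The main fits used mouse as a replicate block. The median change of the members stayed above 0 in every alternative run for the lineage contrasts, but with the 7-list gate it lay below that of all genes for primary granule over HSC with no filter (1.0 against 1.07) and for erythroid over megakaryocyte with no filter (0.55 against 0.71) and with the stricter gate (0.64 against 0.87). With the gate on thinned counts it was 0.78, 0.45 and 0.19 for erythroid over HSC, primary granule over HSC and erythroid over megakaryocyte, against 1.30, 0.98 and 0.61. No named gene's direction reversed: 501 gene results kept their side of the threshold and 341 fell short of it.

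With the 7-list gate, erythroid over HSC gave 11 calls. It gave 4 with DESeq2 size factors, 6 with total counts, 5 with no filter, 38 with the mixed plate, 17 with at least 5 cells, 0 with the gate on thinned counts, 35 with the 6-list gate, 1 in the second table alone and 0 to 11 without a mouse. Megakaryocyte over HSC gave 0 calls, against 3 by DESeq2, 1 with no filter, 1 with no replicate block, 2 with the mixed plate, 1 with at least 5 cells and 8 with the 6-list gate. These stood beside 11.5%, 0.21%, 0.789%, 1.1%, 0.567% and 2.07% of all genes, in the order listed. Primary granule over HSC gave 0, against 8 by DESeq2, 2 with no filter, 1 with no replicate block, 15 with the mixed plate, 2 with at least 5 cells and 1 with 2 gates only. Erythroid over megakaryocyte gave 0, against 2 by DESeq2 and 3 with the 6-list gate (7.0% and 3.32% of all genes). Over all genes, the settings for erythroid over HSC gave 2.3%, 2.28%, 1.78%, 7.26%, 4.33%, 0.778%, 9.3%, 1.52% and 0.39 to 2.85%, in the order listed. The settings for primary granule over HSC gave 9.6%, 0.408%, 1.17%, 2.0%, 1.08% and 0.736%.

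With the 6-list gate, erythroid over HSC gave 35 calls. It gave 16 with no replicate block, 53 with the mixed plate, 14 with at least 20 cells and 5 with 2 gates only. It gave 0 and 1 in the first and the second table alone, and 1 to 36 without a mouse. Beside these counts stood 9.3%, 10.9%, 15.6%, 4.45%, 3.35%, 0%, 1.83% and 0.79 to 9.51% of all genes, in the order listed. Monocyte over HSC gave 33, against 15 with no replicate block, 21 with at least 20 cells and 1 with 2 gates only. It gave 0 and 1 in the tables alone, and 3 to 33 without a mouse. Of all genes, the shares were 6.5%, 7.91%, 4.68%, 1.26%, 0.0459%, 0.531% and 0.669 to 6.63%, in the order listed. Megakaryocyte over HSC gave 8, against 5 with DESeq2 size factors, 21 by DESeq2, 5 with no filter and 3 with no replicate block. It gave 13 by limma, 24 with the mixed plate, 0 with at least 20 cells and 16 with at least 5 cells. It gave 0 with 2 gates only, 0 in each table alone, and 0 to 8 without a mouse. The shares of all genes were 2.07%, 1.99%, 11.8%, 1.24%, 2.97%, 4.05%, 5.33%, 0.0265%, 3.48%, 0.0536%, 0% in each table and 0.0365 to 2.12%. Erythroid over megakaryocyte gave 3, against 5 by DESeq2, 7 with the mixed plate, 0 with at least 20 cells and 0 with 2 gates only. It gave 0 in each table alone, and 0 to 3 without a mouse. Here 3.32%, 10.9%, 6.23%, 1.22%, 1.27%, 0%, 0.831% and 0.432 to 3.41% of all genes passed, in the order listed. The version with at least 2 mice per gate gave 37, 39, 10 and 3. Settings with fewer mice or cells have fewer sums, and the cause of the other moves was not tested. The day slopes called 0 members in every version, against 0 to 2.72% of all genes. The share of counts on all members moved by less than 1 SD per cell or with the stricter gate. The erythroid complex II share, 0.190% with an SD of 0.000833 over 2 mice, moved by more, to 0.186% with the stricter gate.

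The 7-list gate could not be fitted without m606, with at least 20 cells or in the first table alone, nor with 2 gates only for erythroid cells, nor the day slope with the stricter gate or without a mouse of the first table.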
